A study of Danio rerio with 3 samples.

Results

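The cells described here are a subset of mesenchymal epicardial cells of the adult zebrafish ventricle with high transcript levels of ptger2b, slc16a3, b4galt6 and inhbaa. They numbered 1924 of 7687 mesenchymal cells, and of 15627 cells kept in the series. A cell was kept with at least 317 detected genes and at most 5% mitochondrial UMIs (unique molecular identifiers, each standing for 1 captured transcript). It counted as mesenchymal with hapln1a at 2 or more per 10000 UMIs, with podxl, cldnc and jam2b together under 5 per 10000, and with no ptprc UMI. Each such cell received 3 scores, the summed UMIs per 10000 of 4 genes divided by the mean of that sum over the 7687 cells. Set A held inhbb, fgl2b, rasgef1ba and sostdc1a, set B the 4 genes named above, and set C tnfsf12, dhrs3a, bhmt and pcolcea. A cell was a member where score B was at least 1 and larger than scores A and C. By the same rule on their own sets, 2093 cells were A cells and 1951 were C cells, and 1719 cells fell in no subset. The rule rests on measured transcripts, so the levels of its genes are descriptions.

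All cells came from 6-month-old zebrafish of the strain labelled EK that carried the tcf21:nucEGFP reporter, a nuclear green fluorescent protein under tcf21 regulatory sequence. Ventricles were taken from uninjured fish (Ctrl) or at 3 or 7 days after partial ventricular amputation (3 dpa and 7 dpa), dissociated, and sorted for live EGFP+ cells. Because the gate read a tcf21 reporter, the level of tcf21 itself was partly set by the sort. There was 1 droplet library of 3′ transcript ends per condition, and the number of fish pooled in each was not given in the sources used here. Library and condition therefore cannot be told apart, no test between conditions was possible, and no p-value is given.

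The epicardium is the mesothelial cover of the heart. Part of it is an epithelial outer layer, and part lies beneath as mesenchymal, fibroblast-like cells that supply matrix and paracrine signals. ptger2b encodes a zebrafish counterpart of the prostaglandin E2 receptor EP2, which couples to Gs and raises cyclic AMP. slc16a3 encodes the monocarboxylate transporter MCT4, which exports lactate from glycolytic cells. b4galt6 encodes a galactosyltransferase that makes lactosylceramide, the base of most glycosphingolipids. inhbaa encodes the beta A subunit of activin A, a ligand of the TGF-β family.

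The 3 libraries held 26092042 UMIs (Ctrl), 52513639 (3 dpa) and 45679493 (7 dpa), with a median of 4311.5, 9623 and 5435.5 per kept cell. Pairs of libraries shared 8 to 13 of their cell barcodes, and no barcode was shared by members of different libraries. Members had a median of 4648.5 UMIs in Ctrl, 7340 at 3 dpa and 4842 at 7 dpa. The medians were 3566, 3749 and 3705 in A cells and 5445, 8880 and 7308 in C cells, so in each library the members lay between the other subsets in depth. A level below is the number of UMIs of a gene per 10000 UMIs, summed over all cells of a group in 1 library. Intervals in parentheses are 95% intervals (exact Poisson for levels, exact conditional for ratios, Clopper-Pearson for shares), and they cover counting error only, not the spread between fish or libraries.

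Members made up a larger share of the mesenchymal cells in Ctrl than after amputation. They were 1084 of 2871 such cells in Ctrl, or 37.8% (36.0 to 39.6). At 3 dpa they were 235 of 1421 cells, or 16.5% (14.6 to 18.6), and at 7 dpa 605 of 3395 cells, or 17.8% (16.5 to 19.1). The last 2 intervals overlapped, and neither reached that of Ctrl. With each cell thinned to 1800 UMIs before the rule, the shares were 39.1%, 18.9% and 20.2%. Dividing each score by its mean within a library in place of the mean over all libraries gave 29.4%, 22.4% and 22.7%, with Ctrl still highest but by less. Over the same libraries A cells made up 24.1%, 19.4% and 33.2% and C cells 16.2%, 29.9% and 31.3%. Each share depends on the other subsets and on the gate, and the part of these in the difference was not tested.

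**Figure D1:**
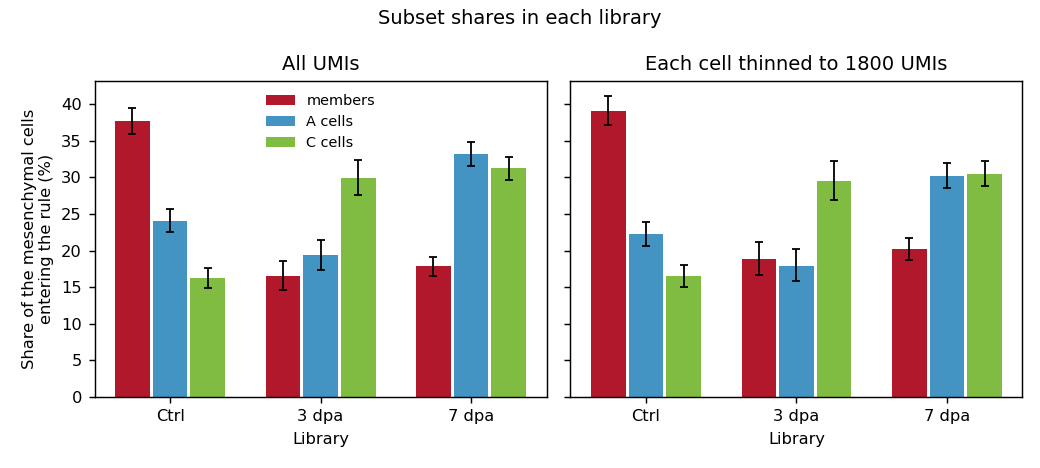
Share of the mesenchymal cells of each library (y axis, %) that were members, A cells or C cells, with all UMIs (left) and with each cell thinned to 1800 UMIs (right); bars are shares and error bars 95% Clopper-Pearson intervals. The member share was 37.8% in Ctrl, 16.5% at 3 dpa and 17.8% at 7 dpa, and 39.1%, 18.9% and 20.2% after thinning.

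Among members the median score B was 2.59, against 0.203 for score A and 0.158 for score C. A score B of 1 stood for 10.9 UMIs of the 4 genes per 10000. Just inside the threshold lay 168 members (8.73%) with a median score B of 1.14, and just outside it 142 cells with score B above A and C and a median of 0.916. A further 188 cells with score B of at least 1 were not members because score A or C was larger. All 4 genes of set B were detected in 533 members (27.7%), and 100 members (5.20%) rested on 1 of them.

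The 4 defining genes differed in their share of the score. The inhbaa level was 15.5 in Ctrl, 20.8 at 3 dpa and 14.5 at 7 dpa, and it gave 40.6% of the set B UMIs of members in Ctrl and 45.5% at 7 dpa, and more at 3 dpa, where ptger2b, slc16a3 and b4galt6 gave 8.53%, 10.3% and 11.0%. For ptger2b the levels were 7.17, 2.53 and 4.16, lowest at 3 dpa. slc16a3 stood at 7.94, 3.04 and 5.58, and b4galt6 at 7.63, 3.24 and 7.67. These 3 genes were lower at 3 dpa than in Ctrl while inhbaa was not, so membership at 3 dpa leaned more on inhbaa. ptger2b was detected in 72.6%, 60.9% and 59.7% of members, against 13.4%, 10.5% and 8.87% of leukocyte-marked cells (ptprc at 2 UMIs or more), which had median depths of 7783, 8369.5 and 7817.5 UMIs. inhbaa was found in 60.4%, 78.3% and 61.7% of members, against 11.9%, 11.6% and 10.5% of leukocyte-marked cells.

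When each defining gene was left out of its own score and the members chosen again on the other 3, the omitted gene was still higher in them than in the A and C cells of every library. The ptger2b level was 6.24 against 0.585 and 0.648 in Ctrl, 1.68 against 0.238 and 0.375 at 3 dpa, and 3.27 against 0.279 and 0.288 at 7 dpa. For slc16a3 the ratio ran from 7.97 (5.58 to 11.8) at 3 dpa to 17.4 (14.5 to 21.1) at 7 dpa over A cells, and from 3.68 (3.16 to 4.3) to 6.28 (5.73 to 6.89) over C cells. Omitted b4galt6 was 7.43 to 8.90 times its level in A cells and 4.23 to 4.78 times that in C cells. inhbaa, left out in turn, was 10.4 to 27.5 times higher than in A cells and 5.41 to 12.7 times higher than in C cells. The genes were proposed as markers on these same libraries, so this describes how they go together and is not independent evidence.

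The label was then set against cell type markers. All but 3 of 1084 Ctrl members, 1 of 235 at 3 dpa and 1 of 605 at 7 dpa had a tcf21 UMI. The tcf21 level was 67.8, 37.1 and 52.5 in members, below the 99.6, 76.5 and 94.7 of A cells and the 81.5, 50.5 and 76.9 of C cells. pdgfra, the PDGF receptor of mesenchymal epicardium, was at 0.677, 1.05 and 0.868 in members, lower than in A cells (1.48, 2.90 and 2.26) and C cells (1.46, 1.86 and 1.79), and it was detected in 26.8%, 51.1% and 33.4% of members. The 4 mesenchymal markers together (tcf21, pdgfra, col1a2 and nrg1) summed to 96.9, 71.8 and 103 in members, 143, 124 and 155 in A cells and 109, 93.5 and 124 in C cells. The members thus carried the mesenchymal markers, at a lower summed level than either other subset in every library. Of that sum tcf21, partly set by the sort, gave 67.8 of 96.9, 37.1 of 71.8 and 52.5 of 103 in members. The sum therefore does not give the direction of each marker. The summed level of 13 epithelial markers was also lower in members, at 50.3, 79.6 and 60.9 against 74.7, 91.4 and 84.7 in A cells and 95.2, 107 and 117 in C cells.

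Markers of other cell types were then summed. The 17 leukocyte markers summed to 0.740, 0.833 and 1.51 in members, with 7, 10 and 7 of them at 0, against 183, 164 and 192 in leukocyte-marked cells. They summed to 0.970, 2.19 and 1.75 in A cells and 0.347, 0.705 and 0.387 in C cells. The rule itself allowed no ptprc UMI in any of these subsets. Endothelial markers summed to 0.206, 0.0797 and 0.226 (15 genes, 7, 8 and 6 at 0), and erythrocyte markers to at most 0.0443. Mural cell markers summed to 14.7, 11.3 and 14.7 in members, against 12.7, 8.51 and 13.6 in A cells, 5.40, 6.82 and 5.53 in C cells and 1.92, 2.36 and 2.2 in leukocyte-marked cells. The 13 cardiomyocyte markers summed to 3.97, 1.67 and 3.05 in members, above the 1.28, 1.23 and 1.92 of A cells and the 1.46, 0.770 and 1.35 of C cells. The same markers summed to 2.95, 0.691 and 0.740 in leukocyte-marked cells, and to 2.42, 1.80 and 7.76 in the cells in no subset. Among the 13 markers nppb, a B-type natriuretic peptide gene, was at 1.01, 0.381 and 0.805 in members and at 0 in leukocyte-marked cells. The contractile gene myl7 was at 1.37, 0.523 and 1.05 in members. The part of cardiomyocyte RNA in these levels was not tested.

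Clustering of the 7687 cells on 1987 variable genes outside the rule placed most members together. The defining genes were proposed as markers on these same libraries, so the clustering is a description and not independent evidence. Cluster 2 of 7 held 85.1% of members (86.8% in Ctrl, 68.9% at 3 dpa and 88.3% at 7 dpa), 6.88% of A cells and 12.8% of C cells, and 61.0% of its 2685 cells were members. Cluster 1 held 86.2% of A cells, and cluster 3 held 52.4% of C cells. Cluster 4, of 309 cells with a median of 15260 UMIs, took 214 of its cells from the 3 dpa library. It held 3 Ctrl members, 55 members at 3 dpa (23.4%) and 37 at 7 dpa (6.12%), which gave 43.9% of all member UMIs at 3 dpa. Its leading genes at 3 dpa against the other mesenchymal cells included col11a1a, a fibrillar collagen gene, crlf1a, a cytokine receptor-like gene, and the interferon-response genes mxb and rsad2. Members in cluster 4 at 3 dpa had a summed level of 31.2 for 10 markers of activated epicardial progenitors, against 7.97 in the other members of that library. Their cell cycle list stood at 3.96 against 0.474, and their immediate early list at 138 against 289. Set B summed to 31.7 inside cluster 4 and 28.0 outside it. Counts over time are therefore given with and without these cells. Where a value in members outside cluster 4 stands beside A or C cells, the latter keep their cells of cluster 4. These were 0.573% of A cells and 3.69% of C cells.

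The members differed from the A and C cells by a limited set of genes. A gene was entered with at least 50 UMIs over members, A and C cells together in each library. It was counted as higher where its level was at least 1.5 times that of both A and C cells in each of the 3 libraries. It was counted as lower where its level was at least 1.5 times below both in each of the 3 libraries. Of 6234 genes, 363 were higher (5.82%) and 519 lower (8.33%), of which 359 and 515 lay outside the rule. The median log2 ratio over all genes was -0.43, -0.19 and -0.35 against A cells and -0.05, -0.11 and -0.06 against C cells in Ctrl, at 3 dpa and at 7 dpa. With every ratio divided by its library's median, 548 genes were higher and 328 lower, and these held all 363 genes counted as higher and 328 of the 519 counted as lower. The balance of higher and lower genes thus turned with the scaling, and lower genes that did not pass after it are named as such below. Ribosomal protein genes took a median of 25.9%, 31.4% and 24.5% of UMIs in members, 22.1%, 27.9% and 23.2% in A cells and 35.5%, 33.1% and 31.4% in C cells, and the part of this in the ratios was not tested.

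Outside the rule, timp2b was the abundant gene that set the members apart. It encodes an inhibitor of matrix metalloproteinases, and its level was 43.8, 28.4 and 40.1 in members, 3.70, 1.67 and 2.17 in A cells and 4.35, 3.40 and 3.54 in C cells. The ratio over A cells was 11.8 (11 to 12.6), 17.0 (14.8 to 19.7) and 18.5 (17.3 to 19.7), and that over C cells 10.1, 8.35 and 11.4. timp2b was found in 82.7%, 89.4% and 84.8% of members and in 37.9%, 30.5% and 35.9% of A cells, and at 1800 UMIs per cell in 73.8%, 77.5% and 75.6% of members and 24.7%, 15.1% and 21.4% of A cells. It was also found in 38.8%, 66.3% and 48.4% of leukocyte-marked cells (21.5%, 53.0% and 28.6% at 1800 UMIs). At 3 dpa and 1800 UMIs that was above the 15.1% of A cells and the 27.4% of C cells. Whether timp2b UMIs in cells other than members came from those cells was not tested. By its smallest ratio to A and C cells nppc, which encodes C-type natriuretic peptide, a vascular and bone signal, stood first at 11.4, ahead of timp2b at 8.35, but at a score of at least 1.5 it was at 7.20 and timp2b at 10.8. Its level was 0.749, 0.651 and 0.580 in members, and in Ctrl its 417 UMIs came from 33 of 1084 members (3.04%). At 3 dpa no nppc UMI was found in A cells, and the members were at least 25.6-fold higher, with the floor set at 3 counts over all cells of the group. il11b, a cytokine gene of the interleukin 11 family, was at 0.474, 0.315 and 0.517, in 9.96%, 11.9% and 9.59% of members, and at least 12.4-fold higher than in A cells at 3 dpa.

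The other 9 leading genes covered several functions. rdh10b, which converts retinol to retinaldehyde in the synthesis of retinoic acid, was at 7.99, 6.70 and 9.78 in members, 0.795, 0.458 and 0.711 in A cells and 1.11, 1.09 and 1.85 in C cells. mbd2, a reader of methylated DNA, was at 4.14, 3.35 and 3.87 in members and at most at 0.806 in A and C cells. tgif1, a homeobox corepressor of Smad signalling, was at 3.77, 2.30 and 2.54, with ratios of 4.44 to 12.3. gfpt2 and has1 are described with hyaluronan below. palld, an actin-bundling scaffold, stood at 1.83, 1.53 and 1.61 against at most 0.316 in the other subsets, and slc4a7, a sodium bicarbonate cotransporter, at 0.544, 0.399 and 0.514 against at most 0.121. The unnamed transcript si:ch211-212g7.6 was at 3.49, 0.797 and 2.07, lowest at 3 dpa. plek, known as a protein kinase C substrate of blood cells, was at 0.788, 0.213 and 0.401 in members. In leukocyte-marked cells it was higher still, at 2.35, 2.06 and 1.92, and the part of leukocyte RNA in its member level was not tested.

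The 8 leading lower genes included regulators of hormone and stress signals. hsd11b2, the enzyme that inactivates cortisol, was at 2.17, 0.744 and 2.07 in members, 12.3, 5.73 and 9.49 in A cells and 14.2, 4.0 and 12.1 in C cells. agtr2, an angiotensin II receptor gene, was at 0.320, 0.102 and 0.303 against 2.01, 0.798 and 1.70 in A cells. sesn1, a stress-induced sestrin, was at 0.643, 0.270 and 0.550 against 6.38, 2.86 and 6.65 in A cells and 3.21, 1.24 and 3.18 in C cells. cebpa, a transcription factor of differentiation, was at 0.424, 0.0532 and 0.297, and its ratio to A cells ran from 0.0681 (0.0339 to 0.125) at 3 dpa to 0.224 (0.191 to 0.262) in Ctrl. All 4 genes showed their lowest member level at 3 dpa. pik3r3a, a regulatory subunit of phosphoinositide 3-kinase, was at 0.106, 0.0620 and 0.119 against 0.857, 0.458 and 0.911 in A cells. zbtb33, fbxl6 and si:dkey-56m19.5 were lower at levels of 0.00892 to 0.0487 in members.

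**Figure D2:**
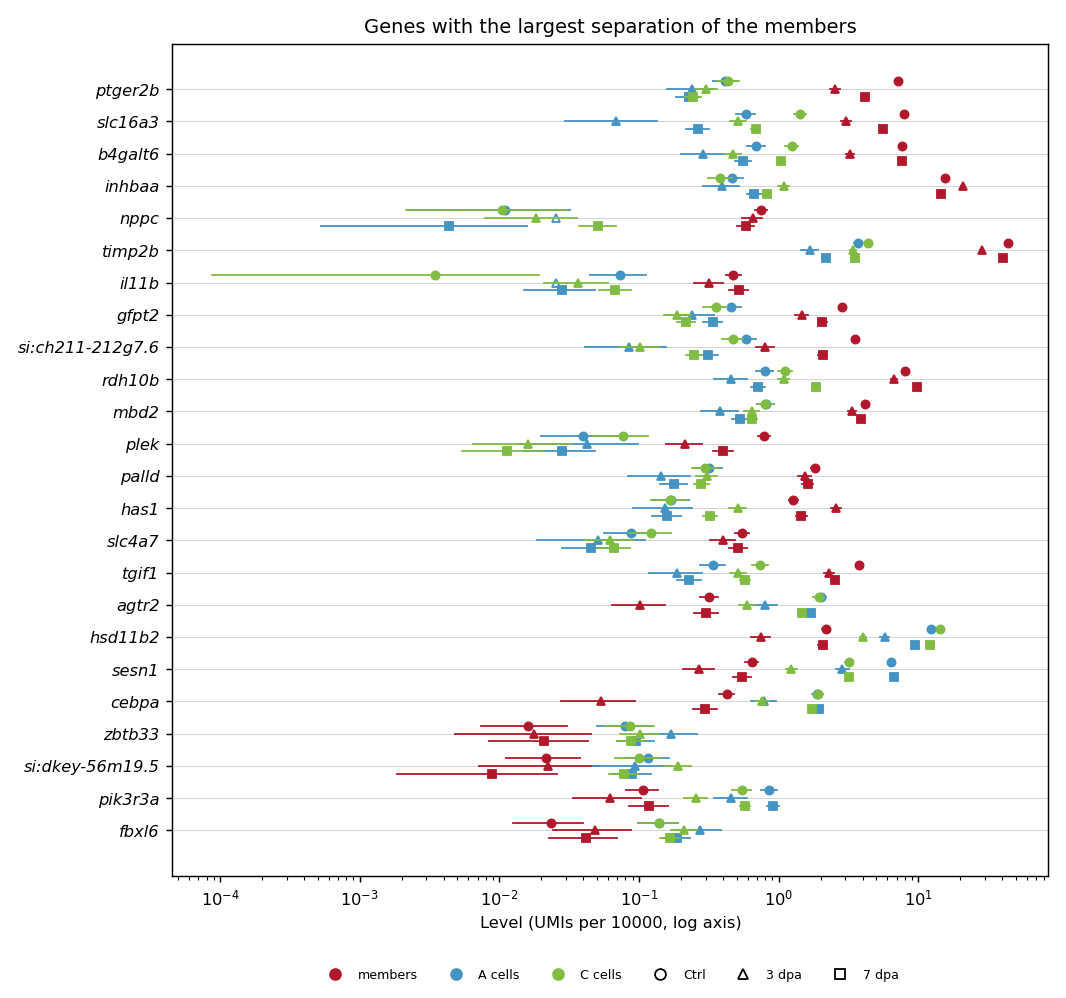
Level (x axis, UMIs per 10000, log axis) of the 4 defining genes of set B, the 12 leading higher and the 8 leading lower genes in members, A cells and C cells of the 3 libraries; points are levels, lines 95% Poisson intervals, and open symbols mark groups with 0 UMIs, drawn at the level of 3 counts. timp2b lay at 28.4 to 43.8 in members and at 1.67 to 4.35 in the other subsets, and hsd11b2 at 0.744 to 2.17 in members and at 4.0 to 14.2 in the others.

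Cluster markers that the study listed for the population with these defining genes were also counted. Of 20 such genes, 18 were higher in members and 0 lower, with a median log2 ratio over A cells of 1.71, 1.69 and 1.87 and over C cells of 1.78, 1.61 and 2.08. They were chosen on these samples, so the count is not independent evidence of their direction. The 2 that did not pass were sdc4, a heparan sulfate proteoglycan, with ratios of 1.40 to 2.22, and pim1, a cytokine-induced kinase, with ratios of 1.45 to 2.16, which passed after scaling by the median. The most abundant was cxcl18b, a chemokine, at 186, 82.7 and 147 in members, 30.5, 27.3 and 26.8 in A cells and 63.1, 38.2 and 49.6 in C cells. bcl2l10, an apoptosis regulator, was at 19.3, 29.3 and 27.6 against 3.73 to 10.2 in the other subsets. mvp, the major vault protein gene, was at 20.2, 13.5 and 18.0 against 1.89 to 7.09. Of the rest, clic2, rgcc, pmp22b, cbx7a, tcima, maff and zgc:158343 were higher as well, with smallest ratios of 1.52 (tcima) to 3.08 (maff).

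Lists of genes by pathway were read against the background of 5.82% higher and 8.33% lower over all genes. Few prostaglandin genes passed. Of 14 tested, ptgs2a and the defining gene ptger2b were higher and ptgs1 was lower. As ptger2b was higher by the rule, this left only ptgs2a and ptgs1, near the shares over all genes each way. ptgs2a encodes the inducible cyclooxygenase that starts prostaglandin synthesis, and its level was 9.99, 12.4 and 10.4 in members, 0.904, 1.94 and 0.448 in A cells and 2.29, 6.17 and 5.07 in C cells. It was detected in 46.2%, 73.6% and 49.3% of members, in 8.54%, 18.9% and 6.03% of A cells and in 20.6%, 51.8% and 30.1% of C cells. In leukocyte-marked cells the shares were 4.48%, 12.8% and 8.87%. ptgs1, the constitutive cyclooxygenase, was at 0.0700, 0.0310 and 0.0505, with ratios of 0.192 to 0.482. ptges, which makes prostaglandin E2, stood at 1.17, 1.55 and 1.64 in members with ratios of 1.22 to 3.05 and did not pass, and ptges3b passed only after scaling by the median. Targets of cyclic AMP, the second messenger of EP2, were counted next. Of 19 tested, crema, cremb and nr4a3 were higher and per1a was lower. cremb, a cyclic AMP-responsive repressor gene, was at 8.28, 2.47 and 5.96 in members against 2.64, 1.31 and 2.28 in A cells and 1.81, 0.673 and 1.24 in C cells. crema had ratios of 1.86 to 3.49 and nr4a3, an orphan nuclear receptor, of 3.16 to 5.87. nr4a3 was also at 3.38, 1.71 and 2.66 in leukocyte-marked cells. per1a, a clock gene, was at 0.0287, 0.0443 and 0.0773, with ratios of 0.152 to 0.301. The median of the cyclic AMP list over A cells was 0.08, -0.20 and 0.11 on the log2 scale.

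Genes of glucose use were higher at several steps, and the lactate exporter gene slc16a3 was higher by the rule. Of 23 tested, 6 were higher (slc2a1b, hk1, hk2, pgk1, pfkfb3 and the defining gene slc16a3) and 1, pfkfb4b, was lower, and the list's median log2 ratio was 0.34, 0.93 and 0.40 over A cells and 0.81, 0.47 and 0.74 over C cells. slc2a1b, a glucose transporter of the GLUT1 type, was at 0.528, 0.341 and 0.434 in members, 0.207, 0.0424 and 0.120 in A cells and 0.156, 0.0689 and 0.0959 in C cells. hk2, a hexokinase gene, was at 0.589, 0.399 and 0.446 against 0.160, 0.0340 and 0.0957 in A cells, and at 0.586, 0.680 and 0.623 in leukocyte-marked cells. pgk1 and pfkfb3, too, were as high or nearly so in leukocyte-marked cells. Opposite in direction, pfkfb4b, like pfkfb3 an enzyme that sets fructose 2,6-bisphosphate, was at 0.0539, 0.0709 and 0.146 in members against 0.614, 0.272 and 0.587 in A cells. The glycolytic gene gapdhs (5.34, 5.92 and 4.59 in members) and bsg, the chaperone of lactate transporters (4.43, 2.80 and 3.78), did not pass. In the hypoxia list 2 of 19 were higher (higd1a and ndrg1a) and 4 lower (adma, kdm3b, bhlhe41 and mxi1), but after scaling by the median 3 were higher, with hif1ab added, and only bhlhe41 was lower. vegfaa, a hypoxia-responsive angiogenic ligand gene, was at 22.3, 7.26 and 13.9 in members, 10.2, 6.78 and 7.73 in A cells and 4.0, 2.48 and 2.5 in C cells. It did not pass because its ratio over A cells at 3 dpa was 1.07.

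Activin and TGF-β genes differed at the levels of receptor and inhibitor, and the ligand subunit gene inhbaa differed by the rule. Of 23 tested, 6 were higher, among them the defining gene inhbaa by the rule, and 2 lower. Beside the ligand subunit inhbaa, fstl3, a secreted binder of activin, was at 5.90, 3.01 and 3.82 in members, 1.63, 0.874 and 1.09 in A cells and 0.787, 0.848 and 0.476 in C cells. tgfbr2a, a type II TGF-β receptor gene, was at 1.1, 1.13 and 1.15 in members against 0.0872, 0.289 and 0.102 in A cells and 0.191, 0.590 and 0.413 in C cells. Its paralog tgfbr2b was lower, at 0.551, 0.284 and 0.568 against 1.11, 0.823 and 1.11 in A cells. acvr2aa, an activin type II receptor gene, was lower as well, with ratios of 0.284 to 0.538. The intracellular inhibitor smad7 was at 1.95, 1.84 and 1.85, with ratios of 2.16 to 3.51, and tgif1 was higher as given above. ltbp1, which holds latent TGF-β in the matrix, had ratios of 1.61 to 4.26 at levels of 0.195 to 0.257 in members. Apart from inhbaa, which was set by the rule, the members thus had more transcript of the activin binder fstl3 and of the inhibitors smad7 and tgif1. They also had more of the receptor gene tgfbr2a and of ltbp1, and less of the receptor genes tgfbr2b and acvr2aa. The list therefore gives no single direction for the pathway.

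Enzymes of sphingolipid metabolism were higher in 4 of 14 and lower in 0. b4galt6 was among them by the rule. sptlc2b, a subunit of the serine palmitoyltransferase that starts sphingolipid synthesis, was at 3.38, 2.49 and 3.29 in members, with ratios of 2.61 to 4.31, while its paralog sptlc2a (0.864, 0.868 and 0.758) had ratios of 0.535 to 0.922. cers2b, a ceramide synthase gene, and sgpl1, the sphingosine 1-phosphate lyase gene, had smallest ratios of 1.79 and 1.76. sptlc2b, cers2b and sgpl1 reached similar or higher levels in leukocyte-marked cells, for example 3.31, 1.74 and 3.02 for sptlc2b.

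The list of hyaluronan and its precursors had the largest fraction of higher genes among the lists by function, with 1 gene of its breakdown (hyal1) counted in it. Of 13 tested, 6 were higher and 0 lower, and the median log2 ratio was 0.65, 1.79 and 0.70 over A cells and 1.60, 1.24 and 1.76 over C cells. has1, a hyaluronan synthase gene, was at 1.27, 2.57 and 1.45 in members, 0.171, 0.153 and 0.159 in A cells and 0.167, 0.508 and 0.324 in C cells. It was found in 22.6%, 57.9% and 34.5% of members and in 0 of 67, 5 of 86 and 1 of 124 leukocyte-marked cells. At 1800 UMIs per cell the shares of members were 14.2%, 29.4% and 18.9%. The paralog has2 was instead highest in A cells, at 0.890, 0.433 and 0.942 against 0.305, 0.151 and 0.303 in members. Both precursors of the polymer were covered. ugdh, which makes UDP-glucuronic acid, was at 11.5, 4.91 and 9.40 in members against 0.993 to 2.24 in the other subsets. gfpt2, the entry enzyme of hexosamine synthesis, was at 2.83, 1.46 and 2.06, with ratios of 6.11 (5.12 to 7.32) to 9.45 (8.05 to 11) in the 7 dpa library. gnpnat1 and uap1, later steps to UDP-N-acetylglucosamine, had ratios of 3.54 to 7.02 and of 1.57 to 3.56. hyal1, which degrades hyaluronan, was higher as well, at 0.682, 0.549 and 0.526. Of the binding partners, tnfaip6 (5.21, 7.26 and 6.97, ratios of 1.29 to 7.26) and vcanb (1.53, 1.26 and 2.31, ratios of 0.605 to 4.53) did not pass.

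Secreted factors and proteases were higher in part. Among 25 growth factor and chemokine genes, hbegfa, il11b, cxcl8b.1 and cxcl18b were higher. hbegfa, a ligand of the EGF receptor, was at 7.07, 4.60 and 7.04 in members, 1.14, 1.1 and 1.1 in A cells and 1.19, 1.43 and 1.19 in C cells. cxcl8b.1, a neutrophil chemokine, was at 1.51, 1.15 and 3.58 in members and at 2.81, 2.96 and 1.94 in leukocyte-marked cells. igf2b (2.09, 2.17 and 2.86) and bmp6 were lower, but neither passed after scaling by the median. Of 20 matrix proteases and inhibitors 5 were higher, among them timp2b, the sheddase adam8a, the aggrecanase adamts9, and plat, a plasminogen activator. plat was at 0.268, 0.159 and 0.259, and its ratio over A cells at 3 dpa, 18.8, rested on a level of 0.00849 there. None of 38 matrix protein genes was higher or lower, sparc (50.3, 42.9 and 76.2), fn1b and col1a2 among them.

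Of 41 immediate early genes 3 were higher (dusp5, maff and zfp36l1b) and 5 lower (jun, egr1, dusp1, zfp36l2 and cebpd). jun, an AP-1 subunit gene, was at 11.3, 6.69 and 10.2 in members against 45.6, 35.6 and 37.0 in A cells and 34, 21.0 and 25.5 in C cells, and egr1 at 1.36, 1.04 and 1.56 against 11.4, 8.71 and 15.5 in A cells. dusp5, a phosphatase of nuclear ERK, was at 34.5, 13.2 and 21.5 in members against 12.7, 4.94 and 7.50 in A cells, while dusp1, of the same family, was at 1.62, 0.859 and 1.32 against 6.24, 4.19 and 5.80. The list summed to 497, 223 and 373 in members, 691, 432 and 560 in A cells and 457, 271 and 361 in C cells, so over the whole list members were below A cells and near C cells. Dissociation is known to induce such genes, and its part here was not tested. In the unfolded protein and amino acid stress list 2 of 27 were higher, trib3 and hspa5, the main chaperone of the endoplasmic reticulum, which was at 3.27, 4.44 and 2.86 in members. Of 21 heat shock genes hspa4a and hspa9 were higher, and hsf2 and serpinh1b were lower but did not pass after scaling.

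In the JAK-STAT and cytokine receptor list 3 of 28 were higher and 1, pim2, was lower, which did not hold after scaling, when 8 were higher. lifrb, a receptor gene for interleukin 6 family cytokines, was at 0.873, 3.85 and 1.82 in members, 0.396, 0.323 and 0.387 in A cells and 0.427, 1.07 and 0.888 in C cells, and the kinase gene pim3 and the TNF receptor gene tnfrsf1b had smallest ratios of 2.17 and 2.59. Among 27 other receptor genes fgfr1b, s1pr1 and tspan36 were higher, and pdgfra, agtr2 and lpar1 lower, lpar1 not after scaling. s1pr1, a sphingosine 1-phosphate receptor gene, was at 0.192, 0.656 and 0.612 in members against 0.0109 to 0.0679 in A cells and 0.0208 to 0.177 in C cells. tspan36, a tetraspanin gene, was at 2.61, 4.37 and 2.78 and higher in leukocyte-marked cells, at 6.10, 6.93 and 8.02. Of 32 transcription regulators, wt1a, wt1b, snai1a, sox11a and cbx7a were higher, and tbx18, gata5, osr1 and meis1a lower, meis1a not after scaling. wt1b, an epicardial regulator, was at 0.582, 0.594 and 0.701 in members against 0.0908 to 0.119 in A cells and 0.130 to 0.158 in C cells. tbx18, another epicardial regulator, was at 0.716, 0.341 and 0.603 against 2.75, 2.78 and 2.37 in A cells and 1.26, 1.54 and 1.60 in C cells. snai1a, a factor of epithelial-mesenchymal transition, had ratios of 1.89 to 3.94. Of 10 retinoic acid genes, rdh10b was higher, and cyp26b1, which breaks retinoic acid down, and the receptor gene rarga were lower, neither of them after scaling. The carrier gene rbp4, at 159, 38.4 and 111 in members, had ratios of 0.451 to 0.760.

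Of the cell type and state lists, 1 of 4 mesenchymal markers (pdgfra) and 1 of 11 epithelial markers were lower, the latter being eppk1, which did not pass after scaling. Among 5 cardiomyocyte markers nppb was higher. No gene passed in either direction among 6 activated progenitor, 3 cell cycle, 8 interferon, 7 mural, 2 leukocyte and 20 ribosomal protein genes, and no endothelial or erythrocyte gene reached the UMI minimum.

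**Figure D3:**
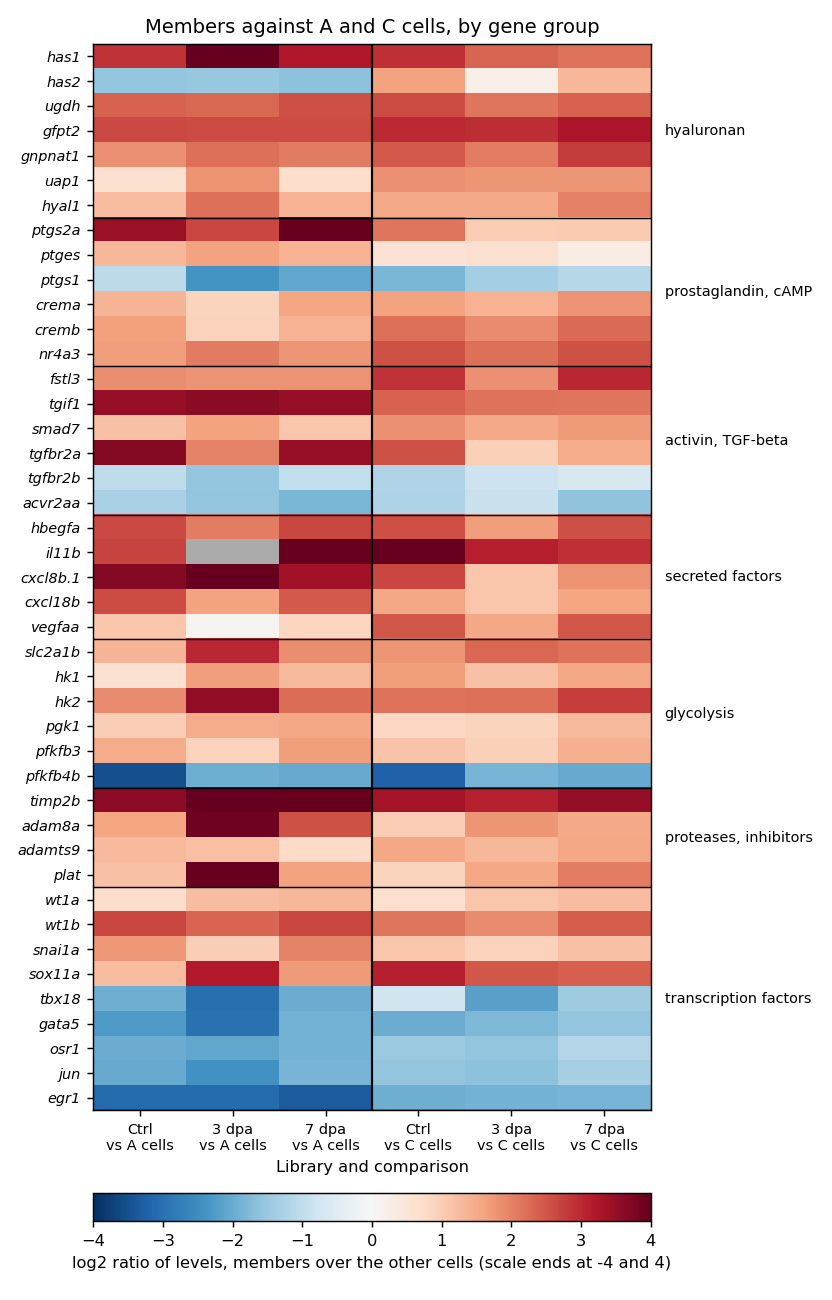
Colour shows the log2 ratio of levels, members over A cells (left 3 columns) and over C cells (right 3 columns), for genes (rows) of 7 groups in each library; the scale ends at -4 and 4, and the grey cell (il11b at 3 dpa against A cells) has 0 UMIs in A cells. Within the groups the paralogs has1 and has2 against A cells, tgfbr2a and tgfbr2b, pfkfb3 and pfkfb4b, and ptgs2a and ptgs1 lie on opposite sides. The rows are a selection and leave out some genes counted as lower in the same lists, among them per1a, igf2b and bmp6.

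After amputation the members differed most at 3 dpa. A gene was counted where its level differed at least 2-fold between libraries. At 3 dpa 787 of 5913 genes (13.3%) were higher than in Ctrl and 629 (10.6%) lower. Without the cells of cluster 4 the counts were 378 and 553, of which 329 and 400 were the same genes. In A cells 233 of 4910 genes (4.75%) were higher and 572 (11.6%) lower, and in C cells 1128 of 6397 (17.6%) and 424 (6.63%). Library and time cannot be told apart in any of these counts, and the median depth of members, 4648.5 UMIs in Ctrl and 7340 at 3 dpa, moved with them.

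The 6 leading higher genes at 3 dpa included rsad2 and mxb, interferon-induced antiviral genes. rsad2 had 0 UMIs in Ctrl members, 0.935 at 3 dpa and 0.134 at 7 dpa, and was at least 174-fold higher at 3 dpa than in Ctrl. Over all mesenchymal cells at 3 dpa, rsad2 was at 3.93 in cluster 4 and at 0.373 outside it. It was at 0.908 in A cells and 1.08 in C cells at 3 dpa, levels close to that of members. mxb was at least 103-fold higher and adamtsl7, an ADAMTS-like matrix gene, at least 121-fold. Outside cluster 4 these 2 genes stood at 0.182 and 0.166 at 3 dpa and did not reach the UMI minimum. ptx3a, a pentraxin gene of the activated epicardium, was at 0.0126, 1.40 and 0.232 in members, 111 (53.3 to 278) times Ctrl at 3 dpa, and 29.4 times outside cluster 4. With cluster 4 kept, the ratio was 0.850 in A cells and 17.7 in C cells. si:ch211-198c19.3 was at 0.348, 23.2 and 2.24, and PAMR1 (1 of many) at 0.00180, 0.549 and 0.101. Outside cluster 4 they were at 16.1 and 0.205 at 3 dpa, where PAMR1 (1 of many) did not reach the UMI minimum.

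The leading lower genes at 3 dpa were zbtb16a, vgf, spon2b, csf3b, cldn7a and myoc. zbtb16a, a zinc finger factor that glucocorticoids induce in mammals, was at 3.71, 0.381 and 3.47, low only at 3 dpa. vgf, a neuropeptide precursor, was at 0.855, 0.0709 and 0.265. spon2b, a secreted spondin, was at 0.329, 0.0177 and 0.152, and the tight junction gene cldn7a at 0.470, 0.0399 and 0.398. myoc, the myocilin gene, was at 0.239, 0.0133 and 0.190. csf3b, a granulocyte colony-stimulating factor gene, had 62 UMIs in Ctrl members and 0 at 3 dpa, at least 8.38-fold lower. Without cluster 4 all 6 were still at least 2-fold lower at 3 dpa.

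At 7 dpa 231 of 6126 genes (3.77%) were higher than in Ctrl and 96 (1.57%) lower, and without cluster 4 155 and 96, of which 139 and 73 were shared. stra6, the receptor for retinol-binding protein, was at 0.00539, 0.727 and 0.386 in members, 71.7 (24 to 352) times Ctrl at 7 dpa. col12a1b, a fibril-associated collagen gene of the regenerating epicardium, was at 0.0198, 1.75 and 0.588, its paralog col12a1a at 0.215, 7.00 and 3.04, and the collagen gene col11a1b at 0.00718, 0.447 and 0.235. For col12a1b the ratio was 29.8 in all members and 13.3 outside cluster 4, and for col12a1a 14.1 and 5.64. cilp2, a cartilage matrix gene, was at 0.00180, 0.0354 and 0.146, and mxb at 0.220 at 7 dpa with 0 UMIs outside cluster 4. Lower at 7 dpa were csf3b, vgf, igfbp1b, ptgs2b, junbb and zgc:163030. junbb, an AP-1 subunit gene, was at 27, 4.39 and 11.7, and igfbp1b, an IGF-binding protein gene, at 0.271, 0.0443 and 0.0654. ptgs2b, the paralog of ptgs2a, was at 0.183, 0.195 and 0.0476, while ptgs2a was not lower.

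Between 3 and 7 dpa 351 of 5115 genes (6.86%) were higher and 411 (8.04%) lower at 7 dpa, and without cluster 4 234 and 140. zbtb16a was 9.11 times (7.32 to 11.5) its 3 dpa level at 7 dpa, cldn7a 9.99 times, myoc 14.3 times (4.68 to 71.2) and diras1a, a small GTPase gene, 10.1 times. npb, a neuropeptide B gene that was also higher in members than in A and C cells, was at 4.69, 0.966 and 4.3. postna, a periostin gene, had 0 UMIs at 3 dpa and was at 0.205 at 7 dpa, at least 15.4-fold higher, but at 0.0400 outside cluster 4. Lower at 7 dpa than at 3 dpa were zgc:152791 (1.79 and 0.0624), si:ch211-198c19.3, si:rp71-77l1.1, adamtsl7, CABZ01073795.1 and sst6, a somatostatin gene (0.372 and 0.0297).

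Of the defining genes, ptger2b was 0.352 (0.322 to 0.384), slc16a3 0.383 (0.353 to 0.415) and b4galt6 0.425 (0.392 to 0.460) times its Ctrl level at 3 dpa. Outside cluster 4 these ratios were 0.561, 0.572 and 0.592 and no longer 2-fold. inhbaa was at 1.34 (1.29 to 1.39) and, outside cluster 4, at 0.956. Members of each library were chosen by the sum of these 4 genes, so their ratios are tied to the rule. With inhbaa left out of the score, 1011 of 1084 members in Ctrl and 150 of 235 at 3 dpa were chosen again. Among the 20 listed cluster markers 9 were lower at 3 dpa (4 outside cluster 4) and 0 higher, cxcl18b among the former, at 0.445 times Ctrl and 0.644 outside cluster 4. At 7 dpa 0 of the 20 were higher or lower. Of the genes higher in members than in A and C cells, gfpt2 was at 0.515 times Ctrl at 3 dpa, timp2b at 0.650, hbegfa at 0.651, rdh10b at 0.838 and ptgs2a at 1.24, all short of 2-fold.

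Lists were read against the shares over all genes given above, 13.3% higher and 10.6% lower at 3 dpa and 3.77% and 1.57% at 7 dpa, or 7.04% and 10.3% and 2.60% and 1.61% outside cluster 4. At 3 dpa all 7 cardiomyocyte markers tested were lower than in Ctrl, 4 of 7 outside cluster 4, with nppb at 0.376 times Ctrl. In leukocyte-marked cells the summed cardiomyocyte list went from 2.95 in Ctrl to 0.691 at 3 dpa. It went from 1.28 to 1.23 in A cells and from 1.46 to 0.770 in C cells. Of 42 immediate early genes 1 was higher and 16 lower, and outside cluster 4 0 and 10. Of 18 cyclic AMP genes 1 was higher and 8 lower, and outside cluster 4 1 and 5. In the hypoxia list 2 of 17 were higher and 7 lower at 3 dpa, and outside cluster 4 1 and 8 of 17. At 7 dpa 1 of 19 hypoxia genes was higher and 0 lower. Of 41 matrix protein genes 10 were higher and 1 lower at 3 dpa (8 and 1 of 39 outside cluster 4), and at 7 dpa 13 of 43 and 0 (10 of 42 and 0). Of 9 activated progenitor genes 7 were higher at 3 dpa (4 of 8 outside cluster 4) and 4 at 7 dpa, with 0 lower. The sum of that list was 3.74, 18.2 and 8.11 in members, 4.62, 7.04 and 5.99 in A cells and 2.78, 19.5 and 9.08 in C cells. In members outside cluster 4 it was 7.97 and 6.16 at 3 and 7 dpa. The sums of A and C cells keep their cells of cluster 4 and are not matched to these 2 values. Of 12 interferon genes 7 were higher and 1 lower at 3 dpa, and outside cluster 4 2 and 0 of 8. The interferon list was already at 6.32 in Ctrl members against 3.06 in A cells and 2.56 in C cells. At 3 dpa its sum was 8.09 in members, 6.74 in A cells and 8.58 in C cells, so C cells were then above members. At 7 dpa the sums were 6.15, 3.12 and 3.85. Of 23 heat shock genes 7 were higher and 0 lower at 3 dpa, and outside cluster 4 5 and 1 of 22, with hsp70.3 at 1.54, 4.74 and 3.6 in all members. At 7 dpa 6 of 23 heat shock genes were higher and 0 lower, and outside cluster 4 7 and 0. Of 27 unfolded protein genes 8 were higher and 8 lower (6 and 7 outside cluster 4). Of 11 retinoic acid genes 5 were higher and 2 lower at 3 dpa (3 and 2 of 10 outside cluster 4). aldh1a2, which completes the synthesis of retinoic acid, was at 0.117, 3.65 and 0.999 in members. At 3 dpa that was 31.3 times Ctrl in all members, 11.6 in all A cells and 13.0 in all C cells. In members outside cluster 4 it was 10.6 times Ctrl. The carrier gene rbp4 was lower, at 0.241 times Ctrl.

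**Figure D4:**
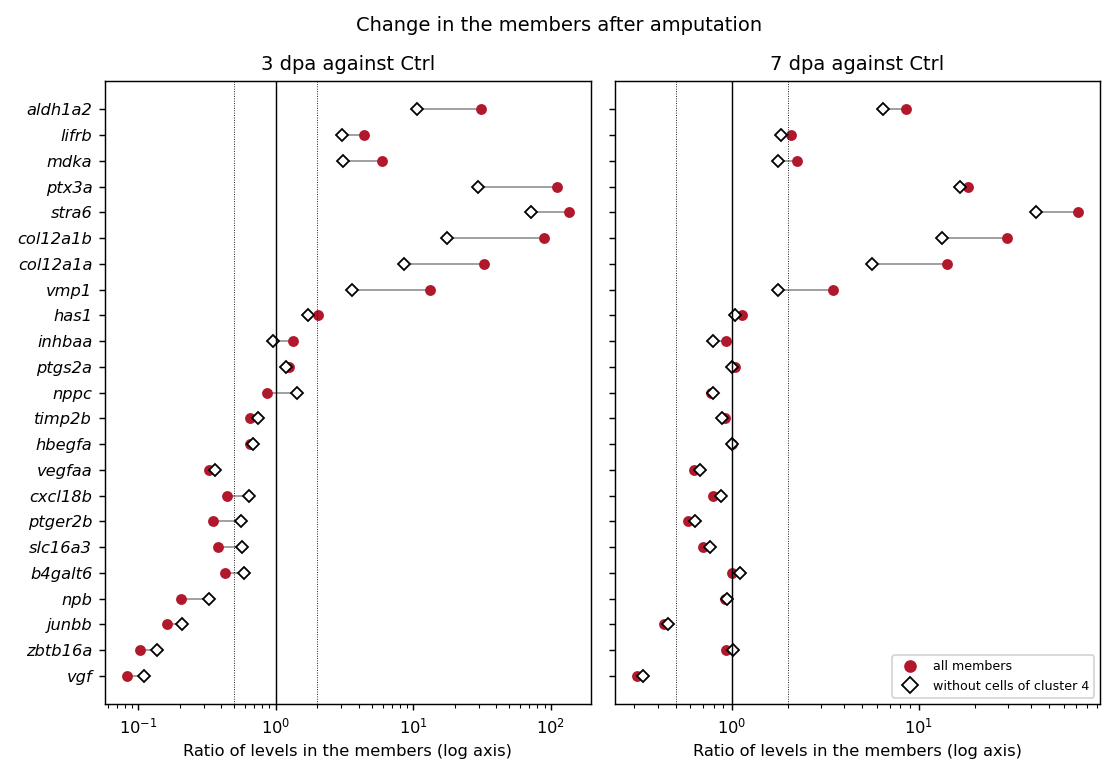
Ratio of the level in members at 3 dpa (left) and 7 dpa (right) to Ctrl (x axis, log axis) for 23 genes (rows); filled circles are all members, open diamonds members outside cluster 4, and dotted lines mark 2-fold. ptger2b, slc16a3, b4galt6 and cxcl18b lie beyond 2-fold at 3 dpa only with cluster 4 (0.352 against 0.561 for ptger2b), while vegfaa, npb, junbb, zbtb16a and vgf lie beyond it either way.

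Changes from Ctrl were compared between the subsets last. A gene counted as further up where its ratio to Ctrl in members was at least 1.5 times that in A cells and in C cells. It counted as further down where both of those ratios were at least 1.5 times that in members. The level in members could itself move either way, so a gene that fell less in members also counted as further up. All 3 subsets come from the same libraries. From Ctrl to 3 dpa 301 of 4624 genes (6.51%) went further up and 299 (6.47%) further down in members, and from Ctrl to 7 dpa 231 (4.13%) and 154 (2.75%) of 5593. With the cells of cluster 4 left out of all 3 subsets the counts were 259, 268, 190 and 174. Higher in members beyond the others at both times was si:dkey-12l12.1, at 0.0377, 1.04 and 0.452, and outside cluster 4 at 0.355 and 0.284 at 3 and 7 dpa. vmp1, an autophagy gene, was 13.2 times Ctrl at 3 dpa in members, 0.809 in A cells and 3.07 in C cells, and 3.57 in members outside cluster 4, and its level in leukocyte-marked cells at 3 dpa, 1.77, was close to the 1.80 of members. map1ab, a microtubule protein gene, was 6.02 times Ctrl at 3 dpa against 0.966 and 1.48, and 2.57 outside cluster 4. stmn1a, a tubulin-binding gene, was at 1.75 times Ctrl against 0.425 and 0.282, but at 0.522 outside cluster 4, so its direction turned. Further down at 3 dpa were CR847566.1, lpar6a, six1b and tuba1c. six1b, a homeobox gene, was at 0.488, 0.0532 and 0.190, 0.109 times Ctrl at 3 dpa against 0.445 in A cells and 0.453 in C cells. At 7 dpa lfng, dnm1l and stk35l went further up, with lfng, a modifier of Notch, at 2.64 (1.66 to 4.24) times Ctrl against 0.784 and 0.621. prpf31, gigyf1b, galnt7 and actc1a (ENSDARG00000042535) went further down. All of these 7 dpa genes had levels of at most 0.264 in members, and their ratios rest on few UMIs. lifrb, higher than in A and C cells at all times, was 4.41 times Ctrl at 3 dpa in members, 0.815 in A cells and 2.5 in C cells.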

How the data were processed

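The authors aligned reads of the 3 libraries with Cell Ranger 3.0.2 to GRCz10 and deposited filtered matrices of counts, the UMIs of each gene in each droplet, not normalized, with 32520 features of which 4073 shared a symbol with another. All groups came from the labels, and each condition was 1 library, so ratios and intervals are given in place of tests. Of 16676 droplets 15627 passed the filters on genes and mitochondrial UMIs (5098, 3905 and 6624 in Ctrl, at 3 dpa and at 7 dpa). The hapln1a minimum of 2 was read as per 10000 UMIs. Read as 2 UMIs, it gave 1787 members, 1739 of them shared. No doublets were removed, because the automatic Scrublet threshold marked 4, 1 and 1 droplets. An alternative removed the 223, 154 and 392 droplets with the highest doublet scores, which held 64, 4 and 18 members. Leukocyte-marked cells (67, 86 and 124) served as the background for RNA not from the cell itself. That background is imperfect. The blood cell gene plek was found in 52.2%, 69.8% and 53.2% of them and tcf21 in 29.9%, 36.0% and 35.5%. A level in these cells can therefore also be their own.

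Genes entered with at least 50 UMIs over the 3 subsets in each library, over both libraries of a time comparison, or in each subset for a change beyond A and C cells. The fold was 1.5 between subsets, 2 between libraries and 1.5 for a change beyond A and C cells. The text names the genes of the rule, the 12 higher and 8 lower genes outside it with the most extreme least-different ratio, 6 genes each way per pair of libraries by the interval bound nearer to 1 (only where their level exceeded that of leukocyte-marked cells), 4 each way for change beyond A and C cells, and, in each list, the genes counted and up to 4 more by level in members. The members and the lists were chosen with earlier results of these data known. Clusters came from scanpy 1.11.5 with Leiden resolution 0.3. Other steps used Python 3.11.15, numpy 2.4.6, pandas 2.3.3, scipy 1.17.1 and matplotlib 3.10.9, and the ratio calls were tested on simulated data. Alternatives changed the UMI minimum, the folds, the scores, thinning, doublets, cluster resolution and the libraries used. Ratios divided by the median ratio, and counts without cluster 4, were chosen after seeing the data. The result of a gene in the protease list is not reported here.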

Additional observations from a re-analysis of the deposited data

Results flagged for a closer look

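CR847566.1, an unnamed transcript, was the 1 gene whose level differed at least 2-fold one way in members and at least 2-fold the other way in both other subsets. From Ctrl to 3 dpa its ratio was 0.419 in members, 2.34 in A cells and 3.50 in C cells. The member levels were 0.0952, 0.0399 and 0.0505 per 10000 UMIs in Ctrl, at 3 dpa and at 7 dpa, from 53, 9 and 17 UMIs, and outside cluster 4 the ratio was 0.661. With 1 library per condition the difference between subsets was not tested.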

How the results depend on the processing

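No paired analysis was possible because each condition was 1 library. Of the counts and shares under the alternatives, 144 stayed within their limits and 55 moved. For the leading higher and lower genes between subsets, which were picked for the most extreme ratios, all 280 values stayed past 1.5-fold. Those with 1 library left out could not fall short, since fewer libraries had to pass. Other named genes were not part of these values, and some lower ones, such as igf2b and bmp6, did not pass after scaling by the median. The counts depended most on the UMI minimum and the fold, since these set how many genes can be counted. With a minimum of 20 UMIs, 910 genes were lower in members than in A and C cells, 1410 were higher and 977 lower at 3 dpa than in Ctrl, 471 and 296 at 7 dpa, 595 and 859 at 7 dpa against 3 dpa, and 666 and 606 (3 dpa) and 527 and 402 (7 dpa) went further up or down in members. With 200 UMIs the same order of comparisons gave 216 higher and 107 lower between subsets, 276 and 320, 78 and 23, 141 and 132, 40 and 85, and 47 and 17. With 2-fold between subsets 187 were higher and 183 lower, and with 2-fold for change beyond A and C cells 69 and 87 at 3 dpa and 41 and 26 at 7 dpa. With 1.5-fold between libraries the counts were 1478 and 1286 (3 dpa against Ctrl), 706 and 480 (7 dpa against Ctrl) and 928 and 1007 (7 dpa against 3 dpa).

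Scores divided by library means gave member shares of 29.4%, 22.4% and 22.7%, 630 genes lower at 7 dpa than at 3 dpa, and 98 further down at 7 dpa. hapln1a at 2 UMIs gave 700 lower at 7 dpa than at 3 dpa. Thinning gave shares of 18.9% at 3 dpa and 20.2% at 7 dpa, a score of at least 1.5 gave 31.7%, 12.7% and 14.4%, and score B at least 1.5 times A and C gave 35.5% in Ctrl and 16.5% at 7 dpa. At resolution 0.5 the leading cluster held 80.9% of members. Ratios divided by their median gave 548 higher and 328 lower genes between subsets. Without cluster 4, 378 genes were higher at 3 dpa than in Ctrl and 140 lower at 7 dpa than at 3 dpa. Leaving out 1 library, which leaves fewer libraries to pass, gave 381 to 526 higher and 638 to 917 lower genes between subsets. With UMIs split at random between the choice of members and the levels, 302 of the 363 higher and 336 of the 519 lower genes were counted again, and after thinning 303 and 308.

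Depth limits low genes most, since 50 UMIs spread over 3 subsets leave wide intervals, and it differed between libraries and subsets. The intervals hold no spread between fish, which these libraries cannot give.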

Other observations

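The 1719 mesenchymal cells that fell in no subset were 631 in Ctrl, 486 at 3 dpa and 602 at 7 dpa. Cluster 2, which held most members, took in 38.0% of them, against 6.88% of A cells and 12.8% of C cells. Cluster 1, which held 86.2% of A cells, took in 39.9% of the cells in no subset. Their 4 mesenchymal markers summed to 128, 81.8 and 134 per 10000 UMIs, above the 96.9, 71.8 and 103 of members in every library.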
